A study of Mus musculus with 6 samples.

Results

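The genes described here encode the enzymes of serine synthesis and of the folate pathway that carries single carbon units. They were chosen by name, as 10 listed gene symbols, and all 10 were found among the 55291 distinct symbols of the deposited table. Testing was limited to the 13170 genes whose values averaged at least 10 across libraries, and all 10 were among them. The study cultured CD4+ T cells from the spleen of naive wild-type C57BL/6 mice for 48 h with 5 mM itaconate or with 5 mM NaCl as the control. Itaconate is a small organic acid produced by inflammatory macrophages through Acod1. Cells of both arms had been labelled with the division dye CFSE and were stimulated through CD3 and CD28 with IL-2 (200 U) present, and RNA was sequenced from 3 libraries per arm. In the table the control libraries are headed NAC, a code that the labels leave unexplained. NaCl is the only other treatment the labels name, so NAC was taken to be NaCl, and every comparison below depends on that.

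Serine is made from an intermediate of glycolysis by Phgdh, Psat1 and Psph in turn. Serine hydroxymethyltransferases then pass a carbon unit from serine to tetrahydrofolate and release glycine. A mitochondrial set of enzymes (Shmt2, Mthfd2, Mthfd2l and Mthfd1l) can turn that unit into formate, which leaves the mitochondrion and is joined to cytosolic folate by Mthfd1 for the synthesis of purines and thymidylate. In activated T cells these enzymes are known to be induced and to supply nucleotide synthesis during proliferation.

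Each library held between 20074299 and 24144999 estimated reads assigned to genes. Cd4, which encodes the coreceptor that defines the cells, averaged a normalized estimated count of 13508 ± 435 with itaconate and 9519 ± 853 with NaCl (SD, n = 3 each). The 7 T cell markers summed to 63296 to 64970 with itaconate and 52838 to 58251 with NaCl, and of these Cd4, Cd3e, Lck and Cd28 rose, Cd3g fell (log2 fold change −0.44) and Cd3d and Cd5 did not pass. The calls of Cd3e, Lck and Cd28 ended in some of the alternative fits listed with the processing. There their limma adjusted p reached 0.0545, 0.101 and 0.0747, while the calls of Cd4 and Cd3g held in all. The part of the T cell markers in the results below was not tested. Summed levels of 5 B cell markers were 173 to 303 with itaconate and 224 to 304 with NaCl. Those of 2 CD8 T cell markers were 308 to 365 with itaconate and 363 to 408 with NaCl, and those of 4 dendritic cell markers 20.6 to 55.9 with itaconate and 24.5 to 48.2 with NaCl. The 6 myeloid markers summed to 47.7 to 81.9 with itaconate and 7.03 to 27.0 with NaCl. Most of that came from Itgam, an integrin gene that T cells can also express (59.0 ± 17.2 with itaconate and 14.3 ± 9.12 with NaCl; SD, n = 3 each), while each of the other 5 reached at most 9.67 in any library. Sums of 3 NK cell markers and of 6 erythroid markers stayed at or under 3.74, and 3 of the erythroid markers were at 0 in all libraries. The part of such cells in the results was not tested either. In RNA from whole cultures, fewer cells of a type and less RNA per cell cannot be told apart. The labels do not say that libraries of an arm came from separate mice or cultures, and the p-values therefore reflect only how much these 6 libraries vary, which could be technical variation.

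With itaconate the mitochondrial folate genes Mthfd1l and Aldh1l2 fell, to 0.535-fold and 0.528-fold of NaCl, and the cytosolic gene Mthfd1 rose 1.45-fold, whereas the genes of serine synthesis and those for the abundant mitochondrial enzymes Shmt2 and Mthfd2 did not pass the test. Of the 10 genes 1 rose, 2 fell and 7 did not pass at an adjusted p under 0.05 in limma, the linear model fitted over all tested genes. Over all 13170 tested genes 36.0% were called, 18.2% higher and 17.8% lower with itaconate, so the share of called genes among the 10 lay near this background. The median log2 fold change of the 10 genes was −0.18, against −0.00095 over all tested genes. The values of the itaconate and NaCl libraries did not overlap for 3 of the 10, the same 3 that passed (1 higher and 2 lower with itaconate), and for 48.4% of tested genes, 24.2% in each direction.

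**Figure D1:**
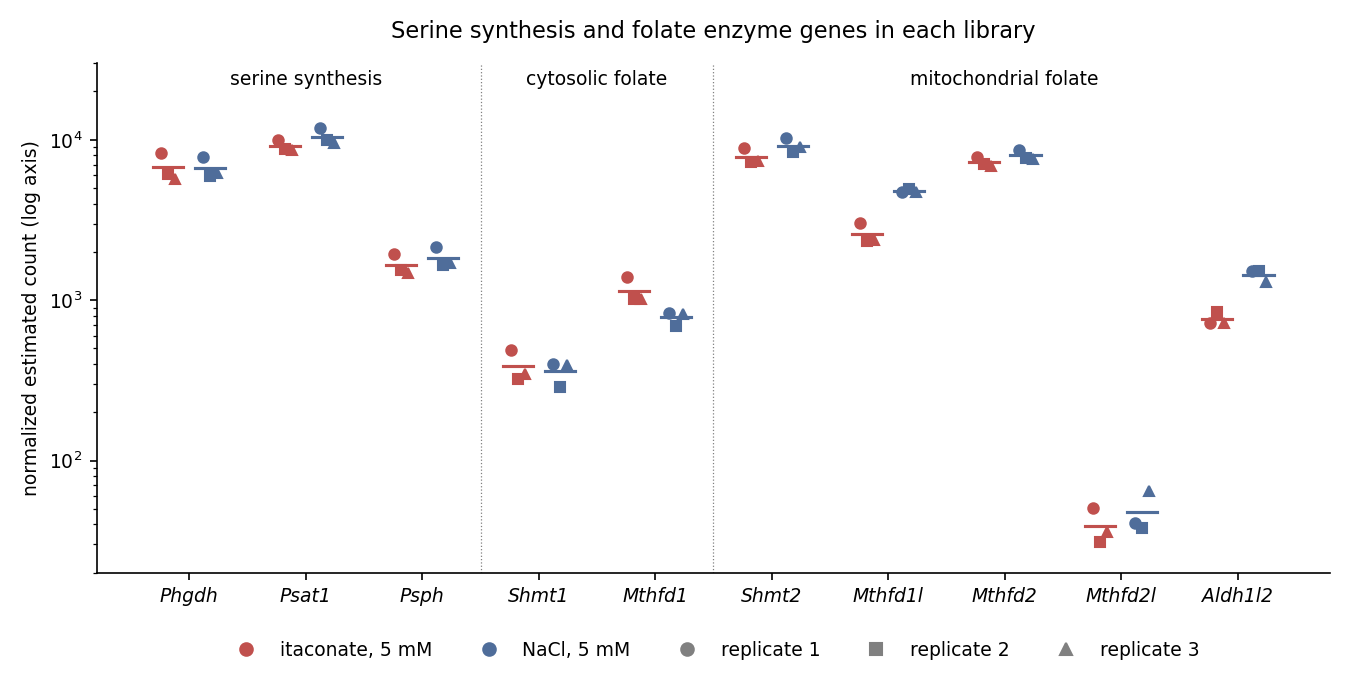
Normalized estimated counts of the 10 genes in each library, on a log axis, with itaconate on the left and NaCl on the right of each pair; points are libraries, shapes give the replicate number and lines the group means. The itaconate and NaCl libraries stand apart for Mthfd1, Mthfd1l and Aldh1l2 and overlap for the other 7 genes.

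Serine synthesis genes were abundant in both arms and overlapped between them. Phgdh encodes phosphoglycerate dehydrogenase, which commits carbon from glycolysis to serine. It had normalized estimated counts of 8297, 6144 and 5725 in itaconate libraries 1, 2 and 3, against 7848, 5974 and 6175 in NaCl libraries 1, 2 and 3. The high library of each arm was number 1, and the arm means were nearly equal (log2 fold change 0.0038 ± 0.14 SE, 95% interval −0.29 to 0.30, adjusted p = 0.986). Phgdh shares 55.8% of its 31-base sequence words with other annotated genes, most of them predicted genes, so that its reads could be divided among copies. The copy with the largest overlap, Gm7901, shares 44.8% and reached at most 36.0 in any library.

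Psat1 encodes phosphoserine aminotransferase, the next step. Its values were 9991, 8724 and 8644 with itaconate, against 11883, 10024 and 9535 with NaCl. Only the highest itaconate library reached into the NaCl range, and the difference did not pass (log2 fold change −0.20 ± 0.099 SE, 95% interval −0.41 to 0.018, adjusted p = 0.141). After quantile normalization the log2 fold change was −0.030 (adjusted p = 0.830). Over the alternatives the limma adjusted p of Psat1 ran between 0.0278 and 0.830. Psph, the phosphatase that releases serine, had 1931, 1540.5 and 1468 with itaconate, against 2154, 1665 and 1698 with NaCl. It too overlapped (log2 fold change −0.16 ± 0.13 SE, 95% interval −0.44 to 0.12, adjusted p = 0.360). Exons of Psph overlap those of the chaperonin subunit gene Cct6a on the other strand, and the strand setting of the counting is not given in the sources used here. Cct6a averaged 3054 ± 391 with itaconate and 4221 ± 758 with NaCl (SD, n = 3 each).

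Of the cytosolic folate genes, Mthfd1 (chr12:76255298-76319803, plus strand, GRCm38) rose. It encodes the enzyme that joins formate to tetrahydrofolate in the cytosol and interconverts the folate forms used for purines and thymidylate. Its values were 1401, 1014 and 1014 with itaconate, against 835, 692 and 824 with NaCl, so the lowest itaconate library lay above the highest NaCl library. The log2 fold change was 0.53 ± 0.14 SE (95% interval 0.23 to 0.83, adjusted p = 0.00992), a 1.45-fold difference on the log2(value + 1) scale of the fit. The call ended in limma without the intensity trend of the variance (adjusted p = 0.0619), and it held in the other alternatives run (0.00173 to 0.0497). Shmt1, the cytosolic serine hydroxymethyltransferase, stood at 491, 324 and 349 with itaconate, against 399, 287 and 393 with NaCl. The arms overlapped, with the highest value in itaconate library 1 and the lowest in NaCl library 2 (log2 fold change 0.10 ± 0.19 SE, 95% interval −0.30 to 0.50, adjusted p = 0.707). Its exons overlap Smcr8 on the other strand, which averaged 1582 ± 55.2 with itaconate and 1535 ± 102 with NaCl (SD, n = 3 each).

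Of the mitochondrial folate genes, Mthfd1l (chr10:3973118-4167081, plus strand, GRCm38) had the smallest adjusted p. Its product is the ligase that works in the direction of formate release in mitochondria. Mthfd1l had 3046, 2343 and 2384 in the itaconate libraries, against 4742, 4921 and 4756 in the NaCl libraries. All 3 NaCl values lay close together and above every itaconate value, and the means were 2591 ± 395 with itaconate and 4807 ± 99.6 with NaCl (SD, n = 3 each). The log2 fold change was −0.90 ± 0.10 SE (95% interval −1.13 to −0.68, adjusted p = 4.47e-05), or 0.535-fold.

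Aldh1l2 (chr10:83487450-83534140, minus strand, GRCm38) also fell. It encodes the mitochondrial formyltetrahydrofolate dehydrogenase, which oxidizes the carbon unit to carbon dioxide and makes NADPH. Its values were 719, 841 and 725 with itaconate, against 1524, 1515 and 1296 with NaCl, with no overlap (762 ± 68.8 with itaconate and 1445 ± 129 with NaCl, SD, n = 3 each). The log2 fold change was −0.92 ± 0.11 SE (95% interval −1.16 to −0.68, adjusted p = 6.35e-05), or 0.528-fold. Exons of Aldh1l2 overlap D10Wsu102e on the other strand, which averaged 1558 ± 122 with itaconate and 1793 ± 164 with NaCl (SD, n = 3 each). The cytosolic counterpart of Aldh1l2 is Aldh1l1, which, named here outside the rule for naming genes, averaged 62.2 ± 10.4 with itaconate and 56.2 ± 17.3 with NaCl (SD, n = 3 each; adjusted p = 0.701).

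The abundant mitochondrial genes did not pass. Shmt2, the mitochondrial serine hydroxymethyltransferase, had 8897, 7263 and 7324 with itaconate, against 10261, 8334 and 9043 with NaCl. Itaconate library 1 alone reached into the NaCl range, and the log2 fold change of −0.24 ± 0.10 SE (95% interval −0.46 to −0.011) had an unadjusted p of 0.0414 and an adjusted p of 0.0946. Without itaconate replicate 1 Shmt2 passed, at a log2 fold change of −0.33 (adjusted p = 0.0268). Over the alternatives its adjusted p ran between 0.0120 and 0.407. Mthfd2, the dehydrogenase and cyclohydrolase of proliferating cells, had 7849, 7032 and 6843 with itaconate, against 8686, 7693 and 7610.2 with NaCl. The arms overlapped (log2 fold change −0.14 ± 0.089 SE, 95% interval −0.33 to 0.049, adjusted p = 0.230), and the interval of the fold ran from 0.793 to 1.03. After quantile normalization the log2 fold changes were −0.12 for Shmt2 and −0.044 for Mthfd2.

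Mthfd2l encodes a related mitochondrial enzyme known from adult tissues. It was the lowest of the 10, at 50.5, 31.2 and 35.9 with itaconate, against 40.8, 38.2 and 64.4 with NaCl. Those values stood for 29.0 to 54.0 estimated reads with itaconate and 38.0 to 71.0 with NaCl. The difference did not pass, and its interval was wide (log2 fold change −0.27 ± 0.35 SE, 95% interval −1.04 to 0.50, adjusted p = 0.587).

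**Figure D2:**
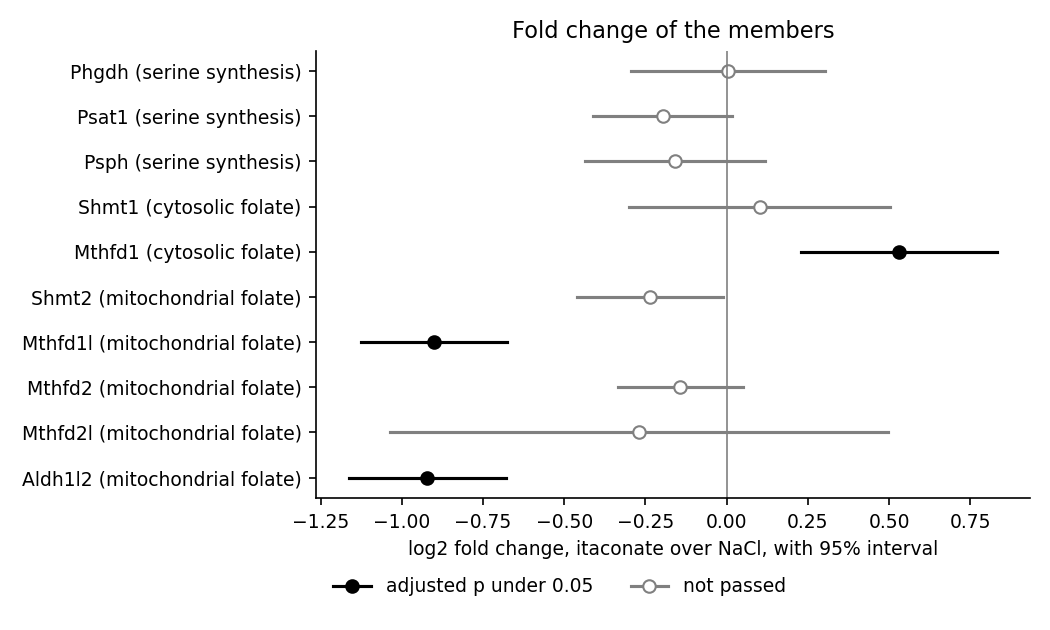
Log2 fold change of each gene, itaconate over NaCl, with its 95% interval from limma; filled points passed at an adjusted p under 0.05. Mthfd1 lies at 0.53, Mthfd1l at −0.90 and Aldh1l2 at −0.92, and the intervals of the other genes reach zero or, for Shmt2, end at −0.011.

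Ratios of paired genes within a library set the mitochondrial enzymes against their cytosolic counterparts. The log2 ratio of Mthfd1l to Mthfd1 was 1.12, 1.21 and 1.23 in the itaconate libraries, against 2.50, 2.83 and 2.53 in the NaCl libraries. Every itaconate value was lower by more than the spread within either arm. With itaconate the ratio was 0.370 times that with NaCl (difference −1.43 ± 0.11 SE). Since Mthfd1l was lower and Mthfd1 higher without overlap, the separation of this ratio, and so its exact p below, was fixed in advance. It restates those calls and adds no further support. The log2 ratio of Mthfd2 to Mthfd1 averaged 2.68 ± 0.17 with itaconate and 3.35 ± 0.14 with NaCl (SD, n = 3 each). The arms did not overlap (difference −0.67 ± 0.12 SE). This ratio shares Mthfd1 with the first, and most of its difference came from Mthfd1 (log2 fold change 0.53). Mthfd2 itself was at −0.14 and did not pass (limma adjusted p = 0.230), so this is not a separate shift.

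For Shmt2 to Shmt1 the log2 ratio averaged 4.35 ± 0.16 with itaconate and 4.69 ± 0.17 with NaCl (SD, n = 3 each). The 2 arms did not overlap, but lay close, with a highest itaconate value of 4.48 and a lowest NaCl value of 4.52. For these 3 ratios the two-sided exact permutation test gave p = 0.1, the smallest that 3 libraries against 3 allow, and 0.133 after Benjamini-Hochberg adjustment over the 4 ratios compared. The ratio of the 2 mitochondrial dehydrogenase genes, Mthfd2 to Mthfd2l, overlapped between the arms (log2 ratio 7.52 ± 0.26 with itaconate and 7.39 ± 0.46 with NaCl, SD, n = 3 each; exact permutation p = 0.8). These ratios compare counts without regard to gene length, which cancels in the difference between arms.

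**Figure D3:**
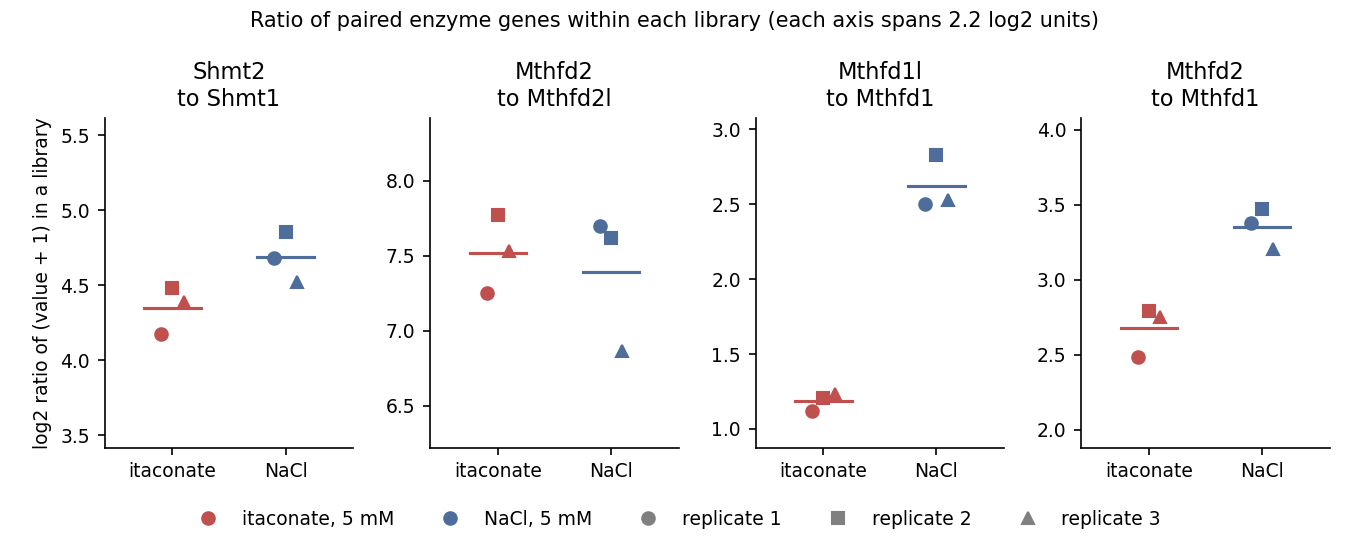
Log2 ratio of 2 genes in each library, with itaconate on the left and NaCl on the right of each panel; points are libraries, shapes give the replicate number and lines the group means. The Mthfd1l to Mthfd1 ratio lies between 1.12 and 1.23 with itaconate and between 2.50 and 2.83 with NaCl.

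Sequences before the start sites are shown for the genes of the 2 ratios with the largest differences. Promoters from RefSeq (GRCm38.p6), 250 bases before to 50 after the start, were matched by symbol for 9 of the 10 genes, in 10 stretches since Psat1 has 2. Aldh1l2 had no entry, so the motif counts below do not cover it. The stretches below are chr10:3972825-3973124 on the plus strand for Mthfd1l, chr12:76254982-76255281 on the plus strand for Mthfd1 and chr6:83317555-83317854 on the minus strand for Mthfd2. Capitals mark GC boxes (GGGCGG on either strand) and CCAAT boxes (CCAAT on either strand).
Mthfd1l: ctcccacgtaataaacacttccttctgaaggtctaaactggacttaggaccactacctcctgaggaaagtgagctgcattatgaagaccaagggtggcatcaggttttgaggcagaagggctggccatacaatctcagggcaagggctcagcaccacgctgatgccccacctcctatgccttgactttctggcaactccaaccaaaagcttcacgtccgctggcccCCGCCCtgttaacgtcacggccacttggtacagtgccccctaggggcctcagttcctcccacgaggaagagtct
Mthfd1: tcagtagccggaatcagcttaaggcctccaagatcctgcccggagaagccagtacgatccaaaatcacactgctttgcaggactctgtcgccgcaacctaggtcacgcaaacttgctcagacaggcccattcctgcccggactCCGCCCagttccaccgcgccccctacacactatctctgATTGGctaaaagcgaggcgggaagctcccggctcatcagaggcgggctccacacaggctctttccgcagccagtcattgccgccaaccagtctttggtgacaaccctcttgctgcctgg
Mthfd2: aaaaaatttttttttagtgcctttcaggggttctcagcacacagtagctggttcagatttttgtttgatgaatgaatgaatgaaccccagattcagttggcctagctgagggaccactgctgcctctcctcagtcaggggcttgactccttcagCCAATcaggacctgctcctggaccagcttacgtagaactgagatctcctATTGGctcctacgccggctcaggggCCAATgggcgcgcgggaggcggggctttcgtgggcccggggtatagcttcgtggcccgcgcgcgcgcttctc
The Mthfd1l stretch held 1 GC box, 0 CCAAT boxes and 8 CG pairs. The Mthfd1 stretch held 1 GC box, 1 CCAAT box and 16 CG pairs, and the Mthfd2 stretch 0, 3 and 15. The median of all 32851 promoters was 7 CG pairs, and 35.7% of them held a GC box and 37.4% a CCAAT box. The core of the response element bound by ATF4 with C/EBP factors (TGATGNAA on either strand) was in 0 of these 10 stretches, against 3.97% of all promoters. The E-box CACGTG was in 0 of the 10 (7.15% of all), and TTTNGCGC of E2F sites in 0 (1.38% of all). Overlapping matches were counted separately, and a window without a match says nothing about elements elsewhere in the gene.

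Levels per length were compared with each value divided by the length of the longest annotated coding transcript in kb. With itaconate Phgdh (3551 ± 729 normalized counts per kb), Psat1 (3485 ± 289), Mthfd2 (3473 ± 256) and Shmt2 (3420.0 ± 405) were highest, and neighbours in this order overlapped (SD, n = 3). With NaCl the order was Shmt2 (4025 ± 426), Psat1 (4005 ± 473), Mthfd2 (3835 ± 287) and Phgdh (3521 ± 544), again with overlap between neighbours. Mthfd1l had 703 ± 107 per kb with itaconate and 1304 ± 27.0 with NaCl, and Psph had 950.1 ± 144 with itaconate and 1061 ± 158 with NaCl. Mthfd1l thus stood below Psph with itaconate and above it with NaCl, without overlap between the libraries of either arm. With all annotated exons as the length, Mthfd1l stood above Psph in both arms, so this order rests on the choice of length.

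Of the lower genes, Mthfd1 ranked above Aldh1l2 in both arms by coding length. Mthfd1 had 353 ± 68.9 normalized counts per kb with itaconate and 242 ± 24.6 with NaCl, and Aldh1l2 had 126 ± 11.4 with itaconate and 239.7 ± 21.5 with NaCl. The 2 genes overlapped in NaCl libraries and stood apart with itaconate, and with all annotated exons as the length Aldh1l2 ranked above Mthfd1 with NaCl. Shmt1 had 136 ± 31.5 per kb with itaconate, overlapping Aldh1l2, and 126 ± 21.9 with NaCl, below it, and Mthfd2l had 18.2 ± 4.67 with itaconate and 22.1 ± 6.70 with NaCl.

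Most of the genes shared their highest library. The value was highest in library 1 for 9 of the 10 genes with itaconate and for 8 of the 10 with NaCl, and in library 1 of both arms for 7. Over all tested genes library 1 was highest in 33.2% with itaconate, in 34.5% with NaCl and in both arms for 15.6%. Aldh1l2 was the exception with itaconate, at its highest in library 2, and Mthfd1l and Mthfd2l were the exceptions with NaCl. This pattern was noticed after the values were seen and was not tested. With both libraries numbered 1 left out, the same 3 genes passed: Mthfd1 at a log2 fold change of 0.42, Mthfd1l at −1.03 and Aldh1l2 at −0.84 (limma adjusted p = 0.0389, 2.50e-05 and 9.07e-04).

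**Figure D4:**
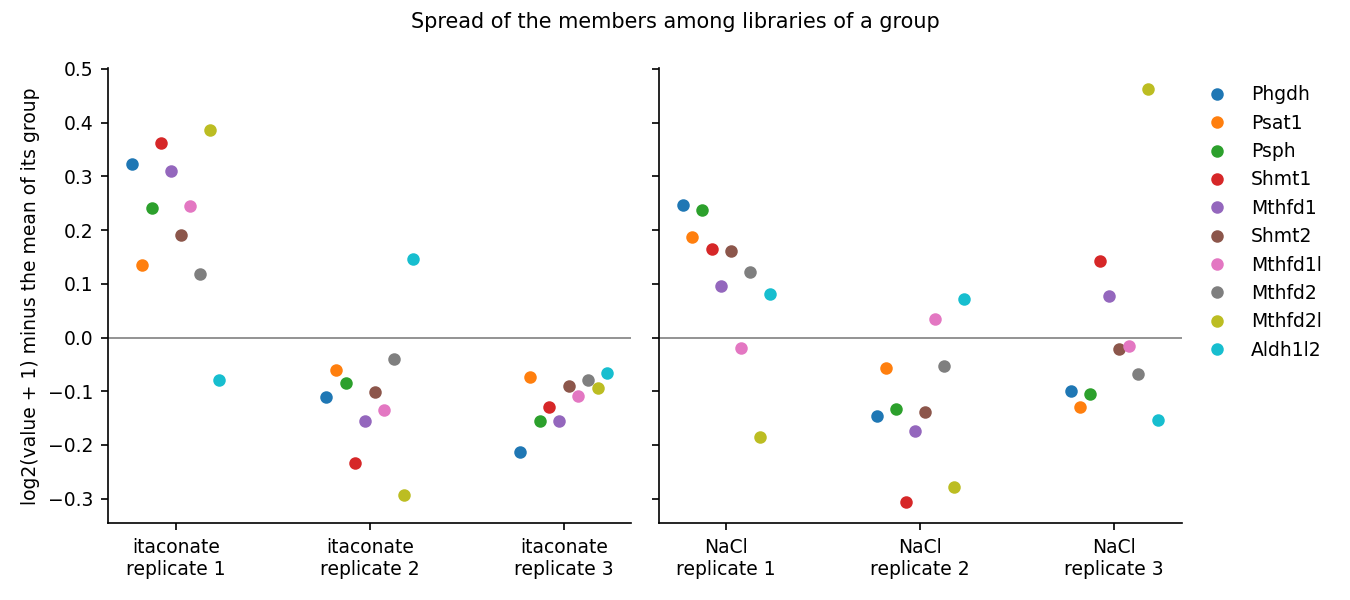
Deviation of each gene in each library from the mean of its own arm, on the log2(value + 1) scale, with itaconate libraries on the left and NaCl libraries on the right; each colour is a gene. In itaconate library 1 all genes but Aldh1l2 lie above zero, and in NaCl library 1 all but Mthfd1l and Mthfd2l.

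Other genes of serine and folate metabolism mostly did not pass. Of 44 listed, 38 were tested, 2 rose, 5 fell and 31 did not pass (median log2 fold change 0.03), a smaller share than the background of 36.0% given above. The 6 that were not tested (Folr1, Folr2, Ftcd, Sds, Sdsl and Tdh) had means under 10. Of these, Folr1, Folr2, Ftcd and Tdh were at 0 in all libraries. In the transport and retention list 0 of 9 tested genes rose and 1 fell (median 0.03). Izumo1r, a folate receptor family gene known as a marker of regulatory T cells, averaged 3854 ± 973 with itaconate and 5777 ± 1275 with NaCl (SD, n = 3 each; log2 fold change −0.59 ± 0.18 SE, adjusted p = 0.0192). Its arms overlapped, and its call ended without itaconate replicate 1 or 2 or NaCl replicate 2 or 3 and with robust variances (adjusted p between 3.91e-05 and 0.124 over the alternatives). Slc19a1, the reduced folate carrier, was at −0.10 ± 0.13, and Sfxn1 and Sfxn3, which encode mitochondrial serine transporters, at 0.077 ± 0.12 and 0.086 ± 0.13.

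Among other folate-using enzymes 1 of 11 rose and 1 fell (median log2 fold change 0.19). Mtrr, which reactivates methionine synthase, had 479, 416 and 619 with itaconate, against 835, 905 and 789 with NaCl. The arms did not overlap (log2 fold change −0.76 ± 0.15 SE, adjusted p = 0.00163). Gart, an enzyme of purine synthesis that takes a formyl group from folate, rose to 2069, 1583 and 1623 with itaconate, against 1453, 1329 and 1367 with NaCl (log2 fold change 0.34 ± 0.11 SE, adjusted p = 0.0341). The Gart call ended without itaconate replicate 1 (log2 fold change 0.21, adjusted p = 0.147) or NaCl replicate 2 (0.104) or 3 (0.0871), with both libraries numbered 1 left out (0.130) and after quantile normalization (0.0516). Atic, the other purine enzyme that uses formyl folate, was at 0.31 ± 0.14 (adjusted p = 0.0894).

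In the glycine cleavage system 0 of 4 genes passed in either direction (median log2 fold change 0.11; 1 had an unadjusted p under 0.05). That gene was Gcsh, the lipoyl carrier protein, at 0.51 ± 0.20 SE (limma adjusted p = 0.0592, between 0.0160 and 0.239 over the alternatives). Amt, the aminomethyltransferase, was at 0.37 ± 0.26, Dld, the lipoamide dehydrogenase shared with other complexes, at −0.15 ± 0.11, and Gldc, the decarboxylase, at means of 12.4 ± 8.97 with itaconate and 13.3 ± 9.22 with NaCl (SD, n = 3 each).

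Of the genes for serine and glycine uptake and use 1 of 14 rose and 3 fell (median log2 fold change −0.10). Slc1a4, a transporter of serine and other neutral amino acids, fell to 717, 662 and 739 with itaconate, against 1342, 1067 and 1087 with NaCl (log2 fold change −0.72 ± 0.12 SE, adjusted p = 5.41e-04). Srr, the racemase that makes D-serine, fell by 0.72 ± 0.20, and Sptlc1, of the serine palmitoyltransferase that starts sphingolipid synthesis, by 0.34 ± 0.11 on the log2 scale. The Srr call ended without NaCl replicate 2 (adjusted p = 0.0645), and that of Sptlc1 without itaconate replicate 2 (0.125) or NaCl replicate 3 (0.0986) or both libraries numbered 1 (0.0524). Gcat, which acts in threonine breakdown to glycine, had 670.0, 267 and 217 with itaconate, against 244, 161 and 137 with NaCl. The arms overlapped and the value of itaconate library 1 stood far above the rest. Its log2 fold change of 0.95 ± 0.35 SE (adjusted p = 0.0490) was 0.46 without itaconate replicate 1 (adjusted p = 0.184). The call also ended without itaconate replicate 2 or NaCl replicate 2 or 3, with a pseudocount of 0.1 (0.0532), with no filter on low values (0.0750) and with robust variances (0.147).

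**Figure D5:**
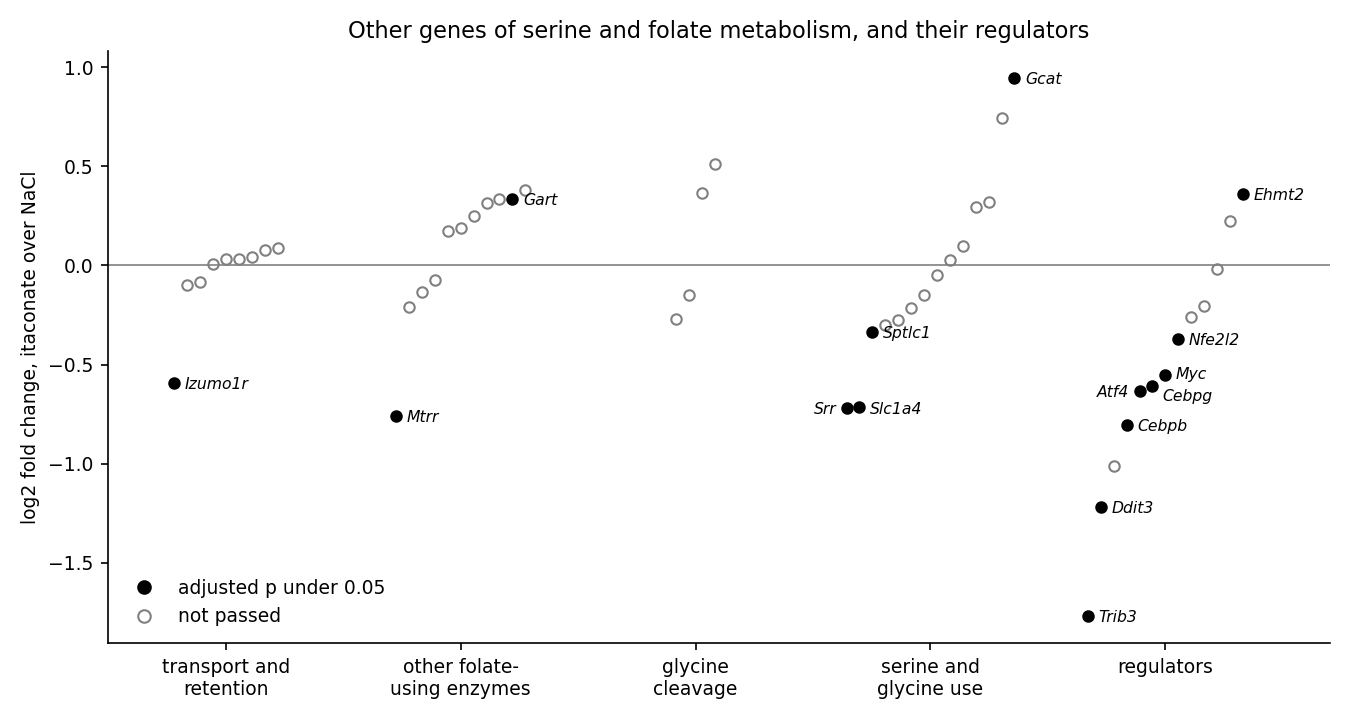
Log2 fold change, itaconate over NaCl, of tested genes in 4 lists of serine and folate metabolism and in a list of regulators; each point is a gene, filled and named where it passed at an adjusted p under 0.05. In the 4 metabolic lists 7 of 38 genes passed, and among the regulators 8 of 13, beside 36.0% of all tested genes. The lists were chosen with earlier results of these data known.

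Most of the genes in the list of regulators fell. Of 13 tested, 1 rose, 7 fell and 5 did not pass (median log2 fold change −0.55), beside 18.2% higher and 17.8% lower over all tested genes. This list was chosen with earlier results of these data known, and its share was not tested against that over all genes. Atf4, the transcription factor gene of the amino acid response, had 8495, 8309 and 9035 with itaconate, against 13826, 13226 and 13009 with NaCl (log2 fold change −0.63 ± 0.078 SE, adjusted p = 7.27e-05). Its dimer partner genes Cebpb and Cebpg fell by 0.80 ± 0.13 and 0.61 ± 0.10 on the log2 scale. The stress factor genes Ddit3 and Trib3 were at −1.22 ± 0.094 and −1.77 ± 0.13. Of the regulators with an entry in the RefSeq promoter table, Trib3 alone held the ATF4 core motif TGATGNAA.

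Myc, which is known to raise serine and folate enzymes in T cells, fell by 0.55 ± 0.11 on the log2 scale (adjusted p = 0.00210). Nfe2l2, which encodes NRF2, fell by 0.37 ± 0.10 (adjusted p = 0.0150), a call that ended without itaconate replicate 1 or 2, NaCl replicate 1 or both libraries numbered 1. In limma without the intensity trend the calls of Nfe2l2, Izumo1r, Gart, Srr, Sptlc1 and Gcat ended, as did those of Mthfd1, Cd3e and Cd28. Ehmt2, the G9a methyltransferase gene, rose by 0.36 ± 0.079 (adjusted p = 0.00361). Mtor was at 0.22 ± 0.11, Rptor at −0.26 ± 0.11, Atf5 at −0.21 ± 0.11, Kdm4c at −0.018 ± 0.11 and Mycn at −1.01 ± 0.64, and these did not pass.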

How the data were processed

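RNA was sequenced from 6 libraries of stimulated mouse CD4+ T cells, 3 with itaconate and 3 with NaCl, grouped by their titles. The authors deposited 1 table of size-factor-scaled estimated counts by gene symbol (unit: signal). STAR 2.7.0f, RSEM 1.3.0 and the mm10 genome are named per the submitters' processing notes, and no source used here gives the annotation, scaling tool, strand setting or filters. In each library 100% of values above 0 fell on hundredths of 1 common step, and 79.9% to 82.2% were whole reads within 0.02 reads, so count models were not used. The step gave the estimated reads.

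For 107 symbols listed more than once, the most abundant entry was used. The limma fit (version 3.58.1, R 4.3.3) used log2(value + 1) with a trend of variance on intensity, two-sided, on 13170 genes with a mean of at least 10, with Benjamini-Hochberg adjustment over them and a threshold of 0.05. The fit was tested on simulated counts drawn independently, with the same extra spread for every gene. That simulation does not show how the fit behaves on libraries that vary as these do. A fold change on the log2(value + 1) scale understates the change of low genes. Ratios were tested by an exact permutation test (scipy 1.17.1). Lengths, overlaps and shared 31-base words came from GENCODE vM21 of GRCm38 (the words on the transcript strand). Within an arm libraries differed by more than sampling noise (chi-square per degree of freedom 12.9 to 25.8). The members and lists were chosen with earlier results of these data known. All members and regulators are named, and up to 4 genes with the smallest p of each other metabolic list, except 1 gene that is not reported here. Marker lists are given as sums, with the T cell markers and Itgam named after their values were seen, and overlapping or copied genes for their position or sequence. Alternatives were pseudocounts of 0.1 and 10, no filter, a mean of at least 100, rescaling, quantile normalization, a replicate block, each library left out, and limma without the trend or with robust variances.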

Additional observations from a re-analysis of the deposited data

How the results depend on the processing

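Mthfd1l and Aldh1l2 kept their direction and passed under all 16 alternatives run, and Mthfd1 under all but limma without the trend, where 0 of the 10 genes were called higher. In that fit 0 other pathway genes were higher and 2 lower. The labels do not tie the replicate numbers to a mouse or day, and same-numbered libraries deviated together with correlations of 0.147, 0.0381 and 0.130 across genes, so the numbers were not taken as pairs, although each library correlated best with its own number. With the replicate number as a block, 4 of the 10 genes were lower, Psat1 (adjusted p = 0.0278) and Shmt2 (0.0120) added, with 42.8% of all tested genes called and 4 other pathway genes higher. For the ratios the block leaves the difference as it is by construction (−1.43 for Mthfd1l to Mthfd1), and the exact paired permutation p of that ratio was 0.25, the smallest it allows. Other pathway genes called higher numbered 1 with a pseudocount of 0.1, with no filter, with robust variances and, chosen after seeing the data, with both libraries numbered 1 left out. With single libraries left out, other pathway genes called ran from 0 to 3 higher and from 3 to 8 lower, the lower count being 3 without itaconate replicate 2 or NaCl replicate 2 or 3 and 8 without itaconate replicate 3. Log2 fold changes that did not pass changed sign in the ranges −0.16 to 0.13 for Phgdh, −0.080 to 0.22 for Shmt1, −5.98e-04 to 0.19 for Sfxn1, −0.019 to 0.18 for Sfxn3, −0.74 to 0.58 for Gldc and −0.11 to 0.079 for Kdm4c. The Mthfd2 to Mthfd2l ratio ran from −0.14 to 0.28. Phgdh was at −0.034 with both libraries numbered 1 left out, and Gldc at 0.049 after quantile normalization. In all, 633 of 699 values for 44 named genes kept their direction and side of the threshold, 39 fell short of it, 15 newly passed and 12 changed sign, and the causes were not tested. Mthfd2l has no value at a mean of at least 100, and its few reads go with the widest interval of the 10 genes.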
